A study of Mus musculus with 20 samples.

Results

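The 10 genes described here encode immune checkpoint ligands and receptors, and they were chosen by name: Cd274, Pdcd1lg2, Cd80, Cd86, Cd276, Vsir, Lag3, Havcr2, Lgals9 and Cd200. All 10 were found by gene identifier among the 49671 genes of the count tables, and 8 of them had enough reads to be tested among 18427 genes. The libraries are bulk RNA-seq of the hippocampus, 1 frozen hippocampus per mouse, from adult male wild-type mice aged 10 to 12 weeks. There were 20 mice in 4 groups of 5. Control mice had no tumour and received isotype-matched control antibodies by intraperitoneal injection. ICI mice had no tumour and received immune checkpoint inhibitors, namely anti-CTLA-4 at 1 mg per dose 3 times a week and anti-PD-1 at 200 µg per dose 2 times a week. Melanoma mice carried D4M-3A.UV2 tumours, from 500000 cells of this syngeneic melanoma line injected into the skin on both sides, and received the isotype antibodies. Melanoma plus ICI mice carried the same tumours and received the same checkpoint antibodies. Antibody treatment of tumour-bearing mice began after 1 week of engraftment, a course of 3 weeks is stated for the melanoma plus ICI group, and all brains were taken 72 h after the last injection. The tumours lie in the skin, so the hippocampus was sampled at a distance from them. Mice are numbered as in the sample titles, and p-values describe the spread between these mice.

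Checkpoint ligands and receptors are surface or secreted proteins that restrain immune cells. PD-L1 (Cd274) and PD-L2 (Pdcd1lg2) bind PD-1 on T cells, and CD80 and CD86 bind either the activating receptor CD28 or the inhibitory receptor CTLA-4, so the antibodies given to these mice block the receptors of 4 of the 10 genes. In the brain the same families also act between resident cells: CD200 is carried mainly by neurons and binds a receptor on microglia and macrophages, TIM-3 (Havcr2) is found on microglia and binds galectin-9 (Lgals9), and VISTA (Vsir) is found on microglia and other myeloid cells. LAG-3 (Lag3) binds MHC class II, and B7-H3 (Cd276) is a B7 family member made by many tissue cells. Interferon gamma is a known inducer of PD-L1, PD-L2 and galectin-9.

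Stretches upstream of 3 genes are shown because the results return to them: Cd274 encodes the ligand of the drug target PD-1, and Havcr2 and Lgals9, a receptor and its ligand, had the smallest p-values of the list in 6 of the 9 tests. Each is the 250 bases before the RefSeq start site in build GRCm38.p6, read 5′ to 3′ on the gene's strand. Capitals mark matches, on either strand, to the PU.1-type ETS box GAGGAAG, which 10.6% of 32817 such windows hold, or to the interferon-stimulated response element core GAAANNGAA, which 7.1% hold. Cd274 lies at chr19:29367188-29367437 on the plus strand, Havcr2 at chr11:46454681-46454930 on the plus strand, and Lgals9 at chr11:78984925-78985174 on the minus strand.
Cd274: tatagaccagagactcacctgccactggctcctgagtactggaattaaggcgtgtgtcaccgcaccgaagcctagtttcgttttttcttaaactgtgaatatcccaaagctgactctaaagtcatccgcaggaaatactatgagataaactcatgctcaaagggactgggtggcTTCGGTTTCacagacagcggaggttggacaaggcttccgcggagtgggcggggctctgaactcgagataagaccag
Havcr2: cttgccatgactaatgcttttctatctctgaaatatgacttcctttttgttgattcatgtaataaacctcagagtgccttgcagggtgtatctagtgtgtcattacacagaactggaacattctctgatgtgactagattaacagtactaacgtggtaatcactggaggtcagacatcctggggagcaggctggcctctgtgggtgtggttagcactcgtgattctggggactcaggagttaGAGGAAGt
Lgals9: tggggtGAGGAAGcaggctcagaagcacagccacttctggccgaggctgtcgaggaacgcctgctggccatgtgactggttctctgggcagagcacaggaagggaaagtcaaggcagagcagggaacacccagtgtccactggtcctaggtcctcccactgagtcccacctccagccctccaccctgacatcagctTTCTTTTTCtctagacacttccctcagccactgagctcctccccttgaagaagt
The Cd274 window held 1 interferon-type match and no ETS box. The Havcr2 window held 1 ETS box, which starts 8 bases before the start site. Lgals9 held 1 of each, 244 and 54 bases before its start. Windows were found for 8 of the 10 genes. Of the other 5 windows, that of Cd276 held 1 ETS box and those of Pdcd1lg2, Cd80, Vsir and Cd200 held neither motif. The gamma-activated site TTCNNNGAA, found in 7.0% of windows, was in none of the 8. These are letter matches and not measured binding.

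Total counts lay between 21990624 and 25735149 per library, so depth was alike across groups. On the leading component of the whole profile, which held 23.4% of the variance, 2 libraries lay apart, control replicate 4 at 71.4 and replicate 1 of the melanoma plus ICI group at 61.5, while the other 18 ranged from -40.9 to 27.5. Over all libraries the summed CPM of marker lists ranged from 6532 to 8296 for neurons, 3620 to 4738 for astrocytes, 3018 to 9080 for oligodendrocytes, 448 to 614 for microglia, 267 to 531 for endothelium, 3.29 to 17.2 for border macrophages, 19.6 to 30.5 for dendritic cells, 4.98 to 26.8 for B and plasma cells and 1.501 to 46.7 for red blood cells. Markers of the hippocampal CA fields summed to 162 to 661 CPM and those of the dentate gyrus to 50.8 to 681. These markers were thus read in every library, but no level from other tissue was at hand to show how much of each was hippocampus. Both scores were lowest in melanoma plus ICI replicate 3 (3.96 and 2.33), which had the highest neocortex score (6.28). Markers of tissue next to the hippocampus ranged from 20.7 to 6657 for choroid plexus, 63.5 to 449 for meninges, 129 to 1296 for striatum and 125 to 488 for neocortex. T cell markers, the cells that PD-1 and CTLA-4 are best known from, summed to 1.24 to 4.12 CPM, and 2 of the 9 passed the count filter. In bulk tissue, fewer cells of a type and less RNA per cell cannot be told apart.

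The 10 genes spanned a wide range of levels, and the order was nearly the same in every mouse. Levels of different genes were compared as reads per 1000 bases of gene length per 1000000 reads (RPKM). Cd200, the neuronal ligand, stood at 23.6 RPKM as a mean over 20 libraries, followed by Vsir at 5.02 and Cd276 at 3.25, and each of these steps held in 20 of 20 libraries. Lag3 at 2.27 and Lgals9 at 2.15 RPKM were neighbours that could not be ordered firmly, since Lag3 was above Lgals9 in 15 of 20 libraries and their ranges overlapped. Havcr2 followed at 1.00 RPKM, below Lgals9 in 20 of 20 libraries, and Cd274 at 0.601, below Havcr2 in 19 of 20. Cd86 stood at 0.379 RPKM, below Cd274 in 17 of 20, and Cd80 at 0.171, below Cd86 in all 20. Pdcd1lg2 was last at 0.0370 RPKM, with 28 reads in the whole series. Among the paired ligands of 1 receptor, Cd274 was 16.6 times as abundant per length as Pdcd1lg2 over all libraries, on 28 reads of Pdcd1lg2 (exact 95% interval 11.4 to 25.1, counting error only), and Cd86 was 2.22 times as abundant as Cd80. By group the ratio of Cd274 to Pdcd1lg2 was 40.7 in control (3 reads of Pdcd1lg2, interval 13.8 to 198.7), 12.5 in ICI (10 reads, 6.69 to 26.3), 8.245 in melanoma (13 reads, 4.73 to 15.7) and 55.4 in melanoma plus ICI mice (2 reads, 15.2 to 460.1). The genes of the drug targets were near the bottom of this range, with Pdcd1, which encodes PD-1, at 0.0396 RPKM and Ctla4 at 0.0482, above Pdcd1lg2 and below Cd80 as means. Pdcd1 had 9, 11, 4 and 12 reads in all in the control, ICI, melanoma and melanoma plus ICI groups, and Ctla4 had 11, 7, 20 and 15. Of these Ctla4 reads, melanoma replicate 4 alone held 10 and melanoma plus ICI replicate 2 alone held 9. Cd200r1, the receptor for CD200, had 33, 18, 21 and 34 reads, against which Cd200 was 213 times as abundant per length over all libraries.

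**Figure D1:**
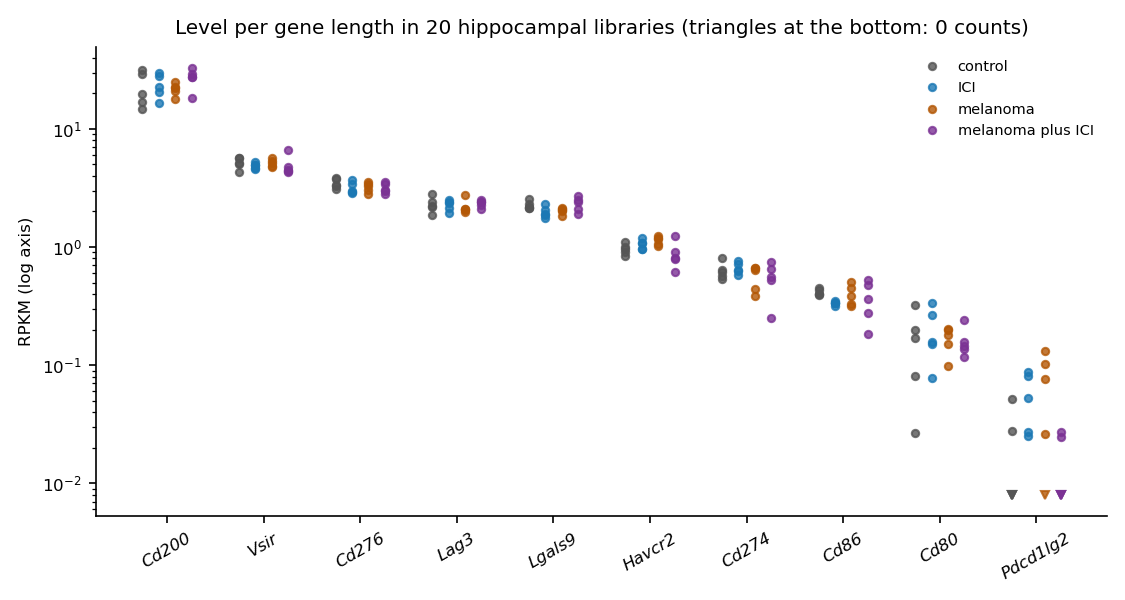
Level per gene length (RPKM, log axis) of the 10 genes in each of the 20 libraries, coloured by group, with libraries at 0 reads drawn as triangles at the bottom. Cd200 at a mean of 23.6 stands above all other genes in every library, and Pdcd1lg2 at 0.0370 is the lowest.

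In none of the 9 tests across the 4 groups did a checkpoint gene reach an adjusted p of 0.05 (edgeR quasi-likelihood, Benjamini-Hochberg over 18427 genes). The background was the same, with 0% of all tested genes called at that threshold in each test. With DESeq2 and limma voom, too, 0 of the 8 genes passed in any test, although these tools called some of all tested genes. DESeq2 called 0.125% of them for any difference, 0.00543% for ICI and 0.0434% for melanoma against control, 0.255% for the interaction, 0.0217% for melanoma averaged over treatment, 0.0488% comparing melanoma plus ICI with ICI and 0% in the other 3 tests. With voom the share was 0.0326% for any difference, 0.00543% for melanoma against control and for the averaged effect of ICI, 0.136% for melanoma plus ICI against melanoma, 0.103% for the interaction and 0% in the other 4 tests. In the test for any difference among groups (edgeR, unadjusted p) the smallest p was that of Havcr2 (0.112, adjusted 0.89), followed by Lgals9 (0.145), Cd200 (0.41), Cd276 (0.511), Cd86 (0.542), Cd274 (0.553), Vsir (0.782) and Lag3 (0.909). At an unadjusted p under 0.05, 0 of the 8 genes were found in that test, where 4.78% of all genes were, and 0 in ICI against control (5.23% of all genes), melanoma against control (5.11%), melanoma plus ICI against control (2.38%), melanoma plus ICI against ICI (8.63%), the averaged effect of ICI (2.19%) and the averaged effect of melanoma (4.34%). There was 1 in melanoma plus ICI against melanoma (5.5% of all genes) and there were 2 in the interaction of tumour and treatment (10.3%). These small counts moved with the processing: the interaction count was 0 without the filter on low counts, with the 4 tissue scores as covariates or without both libraries that lay apart, and voom gave 2 in melanoma plus ICI against each of the other groups and in the averaged effect of ICI. The contrasts share groups and are not independent of each other. The median log2 fold change of the 8 genes lay between -0.11 and 0.10 over the 8 contrasts, beside medians of all genes between -0.01 and 0.02.

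**Figure D2:**
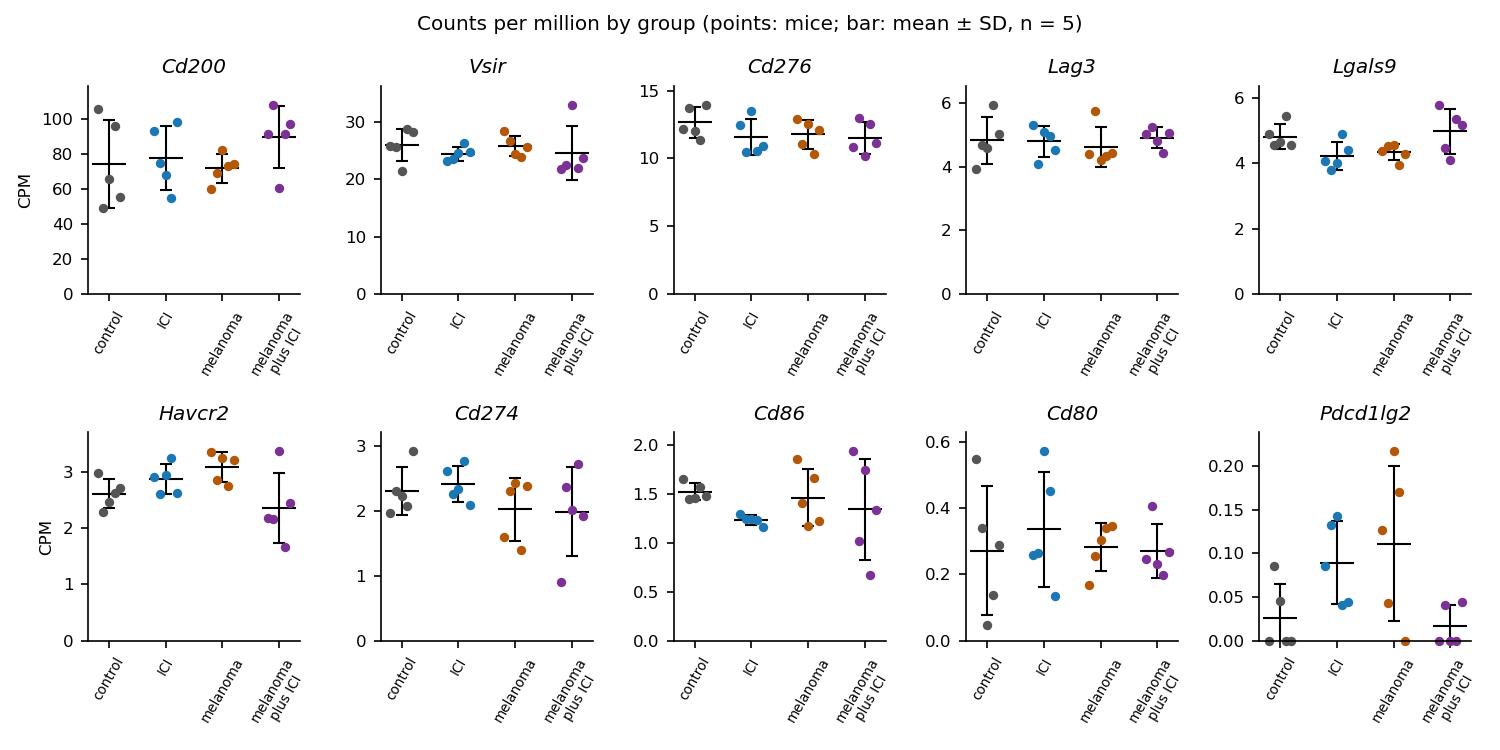
Scaled counts (CPM, linear axes from 0) of each gene by group, 5 mice per group, with black bars for the mean and SD; a lower SD bar that would pass below 0 is not drawn beyond the axis. The groups overlap in every panel except Cd86 between control and ICI and Lgals9 between control and melanoma.

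Havcr2 and Lgals9, receptor and ligand, had interaction estimates of opposite sign, neither of them past the adjusted threshold. CPM here is the count per 1000000 after scaling of library sizes. Havcr2 stood at 2.98, 2.30, 2.46, 2.63 and 2.71 CPM in control mice 1 to 5, and at 2.92, 2.60, 2.95, 3.25 and 2.62 in ICI mice. It stood at 3.36, 2.86, 3.25, 2.76 and 3.21 CPM in melanoma mice, and at 2.18, 2.16, 3.37, 1.66 and 2.45 in melanoma plus ICI mice. Of the 5 melanoma plus ICI mice, 4 lay below all 5 melanoma mice, and replicate 3 lay above all of them, so the groups overlap. Replicate 3 had the lowest dentate gyrus and CA field scores of all 20 libraries. The log2 fold change of melanoma plus ICI against melanoma was -0.39 (SE 0.156, 95% interval -0.71 to -0.06, adjusted p = 0.825 in edgeR). Without melanoma plus ICI replicate 3 it was -0.55 (adjusted p = 0.221 in edgeR), and without replicate 4, which had the lowest value, it was -0.28 (adjusted p = 0.836 in edgeR). The interaction, which asks whether the treatment difference depends on the tumour, was -0.52 for Havcr2 (SE 0.221, adjusted p = 0.484 in edgeR). In melanoma against control, where Havcr2 had the smallest p of the list, the log2 difference came to 0.24 (SE 0.156, adjusted p = 0.877 in edgeR). Melanoma replicates 1, 3 and 5 and melanoma plus ICI replicate 3, the highest Havcr2 values of their groups, had striatum scores of 5.42, 6.83, 5.94 and 5.72. All other libraries had 3.80 or lower, among them ICI replicate 4 at 3.25 CPM of Havcr2. The part of striatal tissue alone was not tested. With scores of choroid plexus, striatum, dentate gyrus and meninges as covariates the melanoma against control value was 0.02, and the melanoma plus ICI against melanoma value was -0.29 (adjusted p = 0.558 in edgeR). The interaction was then -0.38 (adjusted p = 0.408 in edgeR), and it was -0.61 with the microglia score as a covariate (adjusted p = 0.568 in edgeR).

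Lgals9 stood at 4.90, 4.55, 4.65, 5.44 and 4.56 CPM in control mice 1 to 5, and at 4.08, 3.80, 4.001, 4.90 and 4.40 in ICI mice. It stood at 4.37, 4.52, 4.55, 3.94 and 4.30 CPM in melanoma mice, and at 5.79, 4.48, 4.10, 5.37 and 5.16 in melanoma plus ICI mice. Control mice were thus all above melanoma mice, by a margin of less than 0.01 CPM, while melanoma plus ICI mice ran from 4.10 to 5.79 and overlapped the other 3 groups. Groups of control and melanoma did not overlap for 1.04% of all genes, and the log2 fold change of Lgals9 between them was -0.15 (95% interval -0.39 to 0.09, adjusted p = 0.877 in edgeR), or -0.09 with the microglia score as a covariate. In ICI against control Lgals9 had the smallest p of the list, with -0.19 (SE 0.113, adjusted p = 0.766 in edgeR), or -0.12 with the microglia score as a covariate, and in melanoma plus ICI against ICI as well, with 0.23 (SE 0.113, adjusted p = 0.58 in edgeR). Its interaction was 0.38 (SE 0.16, 95% interval 0.05 to 0.72, adjusted p = 0.484 in edgeR). With the microglia score as a covariate the interaction was 0.29 (adjusted p = 0.763 in edgeR), and with the 4 tissue scores 0.39 (adjusted p = 0.283 in edgeR). The 2 libraries that lay apart hold the highest Lgals9 values of their groups, control replicate 4 at 5.44 and melanoma plus ICI replicate 1 at 5.79. Without both, the interaction was 0.28 (adjusted p = 0.68 in edgeR), and the Havcr2 interaction was -0.49 (adjusted p = 0.622 in edgeR). Counting error alone accounted for 91.7% of the variance of Lgals9 within groups and 76.8% of that of Havcr2, which had 84 to 141 and 42 to 87 reads per library.

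**Figure D3:**
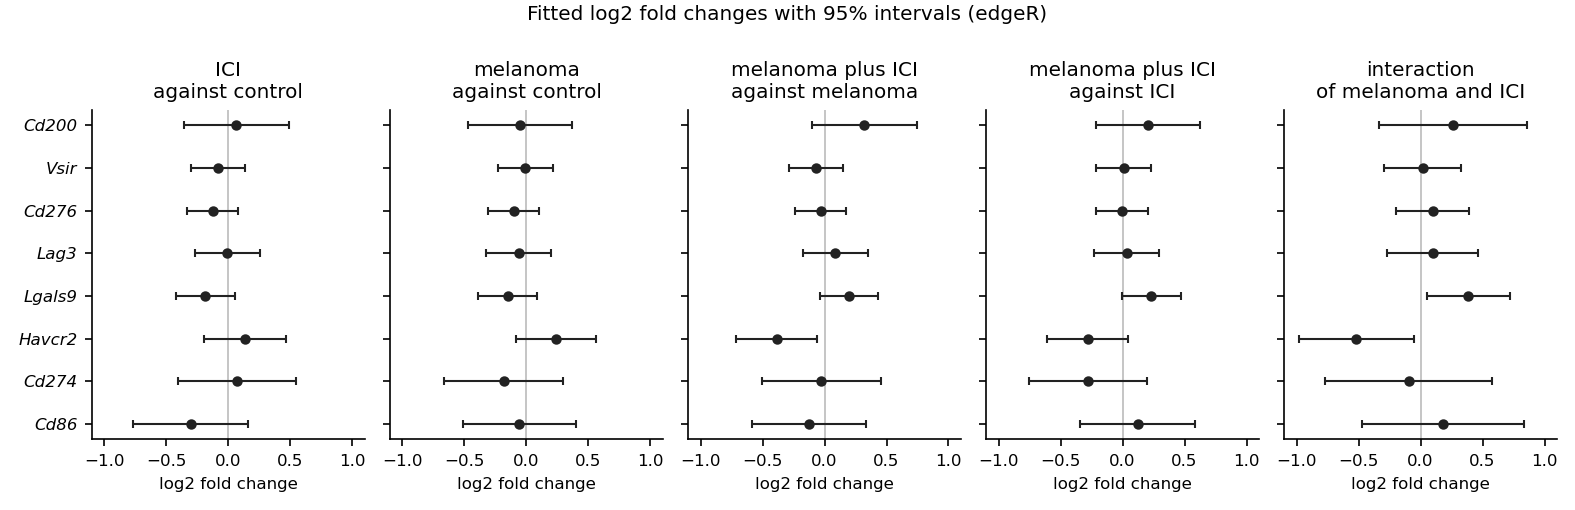
Fitted log2 fold changes (points) with 95% intervals (bars) of the 8 tested genes in 4 group comparisons and in the interaction. The interval leaves 0 only for Havcr2 in melanoma plus ICI against melanoma and for Havcr2 (-0.52) and Lgals9 (0.38) in the interaction, none of them past the adjusted threshold.

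Cd86, the more abundant ligand of CTLA-4 and CD28, was lower in every ICI mouse than in every control mouse, and was singled out after its values were seen. It stood at 1.65, 1.45, 1.46, 1.57 and 1.48 CPM in controls and at 1.29, 1.24, 1.24, 1.24 and 1.156 in ICI mice. Control and ICI groups did not overlap for 0.885% of all genes. The log2 fold change was -0.30 (SE 0.222, 95% interval -0.77 to 0.16, adjusted p = 0.766 in edgeR), so the difference did not pass the test that shares its spread over all 4 groups. Fitted on these 2 groups alone it was -0.31 (adjusted p = 0.841 in edgeR). It was -0.19 (adjusted p = 0.999 in edgeR) with the microglia score as a covariate and -0.50 (adjusted p = 0.343 in edgeR) with scores of choroid plexus, striatum, dentate gyrus and meninges. The 19 microglia markers summed to 448 to 498 CPM among ICI mice and 469 to 614 among controls. With 32 to 42 reads per control library and 26 to 30 per ICI library, the coefficient of variation was 5.64% and 3.82%, below the 16.8% and 18.9% that counting alone would give. Melanoma mice, at 1.85, 1.41, 1.17, 1.65 and 1.21 CPM, and melanoma plus ICI mice, at 1.93, 1.02, 1.74, 0.671 and 1.33, covered the levels of both. Cd86 also had the smallest p of the list in the averaged effect of ICI, at a log2 value of -0.21 (adjusted p = 1 in edgeR). Without melanoma plus ICI replicate 4 that value was -0.13, and with voom it was -0.34 (adjusted p = 0.523 in limma).

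Cd274, the PD-L1 gene, did not differ detectably with either antibody treatment or tumour. It stood at 1.96, 2.30, 2.23, 2.08 and 2.91 CPM in controls and at 2.62, 2.25, 2.33, 2.76 and 2.09 in ICI mice. It stood at 1.60, 2.30, 2.43, 1.40 and 2.39 CPM in melanoma mice and at 0.903, 2.36, 2.01, 2.72 and 1.91 in melanoma plus ICI mice. All groups overlap, and the lowest value by far is melanoma plus ICI replicate 1, a library that lay apart. The log2 fold change was 0.07 for ICI against control (95% interval -0.41 to 0.55), -0.18 for melanoma against control (-0.66 to 0.30) and -0.03 for melanoma plus ICI against melanoma (-0.51 to 0.45). It had the smallest p of the list in the averaged effect of melanoma, -0.23 (adjusted p = 1 in edgeR), and -0.14 without melanoma plus ICI replicate 1. These intervals leave room for changes of up to about 1.46-fold with ICI alone.

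Pdcd1lg2, which lies 22823 bases downstream of Cd274 on chromosome 19 (chr19:29410919-29471157, plus strand), gave 0, 2, 1, 0 and 0 reads in control mice and 2, 3, 3, 1 and 1 in ICI mice. Melanoma mice gave 3, 1, 5, 4 and 0 reads and melanoma plus ICI mice 0, 1, 0, 0 and 1. The sums were 3 (95% Poisson interval 0.619 to 8.77), 10 (4.80 to 18.4), 13 (6.92 to 22.2) and 2 (0.242 to 7.22), intervals that cover counting error only. Of 10 exact two-sided permutation tests on Pdcd1lg2 and Cd80, 1 had an unadjusted p under 0.05, Pdcd1lg2 in melanoma plus ICI against ICI (exact p = 0.0238, adjusted p = 0.238), where the smallest p that 252 arrangements allow is 0.00794. Cd80 gave 33, 38, 33 and 33 reads in the 4 groups, and its exact p lay between 0.468 and 0.992.

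For Cd276, Vsir, Lag3 and Cd200 all pairs of groups overlapped. Cd276 (chr9:58524298-58555437, minus strand) averaged 12.7 ± 1.12 CPM for control, 11.6 ± 1.31 for ICI, 11.8 ± 1.07 for melanoma and 11.5 ± 1.18 for melanoma plus ICI mice (SD, n = 5). It had the smallest p of the list in melanoma plus ICI against control, where log2 stood at -0.13 (SE 0.0993, adjusted p = 1 in edgeR), and at -0.05 with the 4 tissue scores as covariates. Vsir (chr10:60346851-60372684, plus strand) stood at 25.9 ± 2.86, 24.4 ± 1.21, 25.7 ± 1.81 and 24.6 ± 4.72 CPM in the same order, and 4 of the 5 pairwise log2 fold changes lay within 0.08 of 0 and the other, ICI against control, was -0.09. Lag3 (chr6:124904361-124911705, minus strand) stood at 4.84 ± 0.743, 4.81 ± 0.486, 4.63 ± 0.640 and 4.92 ± 0.322 CPM, with intervals for ICI against control of 0.830-fold to 1.19-fold. Cd200 (chr16:45382135-45409053, minus strand) stood at 74.4 ± 25.1, 77.8 ± 18.1, 71.8 ± 8.27 and 89.8 ± 17.7 CPM. Its intervals were wider, with a log2 difference of 0.32 in melanoma plus ICI against melanoma (SE 0.202, 95% interval -0.10 to 0.74, adjusted p = 0.825 in edgeR). Cd276 shares exonic bases with Gm10657 on the opposite strand, whose reads amount to 7.4% of its own. Vsir lies within the span of Cdh23 on the opposite strand, with no shared exonic bases, and the reads of Cdh23 amount to 13.2% of those of Vsir. The strand use of the counting is not given in the sources used here.

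Cd200 varied widely between mice of 1 group. Its coefficient of variation within groups, pooled over the 4 groups, was 23.3%, and the counting part was 2.33%. Control mice 1 to 5 stood at 105.6, 49.1, 65.8, 96.0 and 55.6 CPM. ICI mice stood at 93.3, 74.9, 67.8, 54.6 and 98.4, melanoma mice at 59.8, 69.3, 82.4, 73.1 and 74.5, and melanoma plus ICI mice at 91.5, 108.1, 60.7, 91.4 and 97.5. After removal of group means Cd200 correlated with the oligodendrocyte score at r = -0.64 over 20 libraries (permutation p = 0.00266, adjusted p = 0.0638; rho = -0.54, permutation p = 0.0144, adjusted p = 0.138), and at -0.50 without the 2 libraries farthest from the median score. With the neuron score it correlated at r = 0.38 (permutation p = 0.104, adjusted p = 0.5). Its correlation with the leading component was r = 0.58 (permutation p = 0.00682, adjusted p = 0.0546 over 8 genes; rho = 0.63, adjusted p = 0.0256) and 0.62 without the 2 libraries farthest out. The genes whose profile was most like that of Cd200 over 20 libraries were Tmem35a (r = 0.94), Gm44644 (0.94) and Ly6h (0.93), among 15474 genes compared.

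Lag3 varied with microglial RNA between mice of 1 group. Of 48 relations between 8 genes and 6 cell type scores, with group means removed, 1 passed an adjusted p of 0.05, Lag3 with the microglia score (r = 0.70, permutation p = 0.00073, adjusted p = 0.0350; rho = 0.65, permutation p = 0.00223, adjusted p = 0.0535). Without the 2 libraries farthest from the median score r was 0.61. The call rests on few libraries: r was 0.55 (adjusted p = 0.123) without both libraries that lay apart, 0.55 without control replicate 4 alone, 0.66 without ICI replicate 2 and 0.68 without melanoma plus ICI replicate 4, and none of these passed the adjusted threshold. Control replicate 4 had both the highest microglia score and the highest Lag3 of all libraries, 5.95 CPM. Lag3 stood at 3.92, 4.68, 4.60, 5.95 and 5.05 CPM in controls, 5.32, 4.11, 5.10, 4.98 and 4.53 in ICI, 4.42, 5.76, 4.20, 4.33 and 4.43 in melanoma and 5.05, 5.26, 4.80, 4.42 and 5.07 in melanoma plus ICI mice. All 19 microglia markers were measured, and their summed CPM was 469 to 614 for control, 448 to 498 for ICI, 470 to 491 for melanoma and 465 to 523 for melanoma plus ICI mice. The gene most like Lag3 was Itgam, itself a microglia marker (r = 0.74), followed by Wrap53 and Dnaaf2, and 4 of the 100 genes nearest to Lag3 were microglia markers, of 19 such markers among all genes compared. These markers make up the microglia score and the 20 libraries are the same, so this restates the relation and adds no separate support. Likeness is given with control replicate 4 included. Among the 100 nearest to each of the other 7 tested genes there were 0 microglia markers. Of the 10 endothelium markers, 3 were among the 100 genes nearest to Vsir and 1 among those nearest to each of Cd86, Havcr2 and Lgals9.

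**Figure D4:**
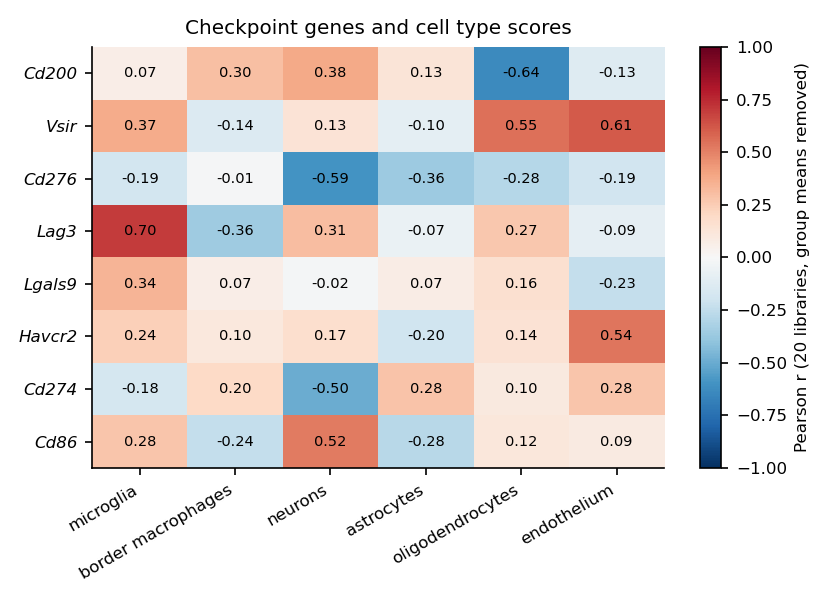
Pearson r between each tested gene and 6 cell type scores (mean log2 CPM of the markers) over 20 libraries, group means removed; red is positive and blue negative. Lag3 with microglia at 0.70 is the only relation past the adjusted threshold, and Cd200 with oligodendrocytes at -0.64 is the most negative.

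The microglia-associated receptors Havcr2 and Vsir correlated with the microglia score at r = 0.24 and 0.37, neither past the threshold, and the difference from Lag3 was not tested. Of the other relations, 7 had an unadjusted permutation p under 0.05 and none passed adjustment. Vsir correlated with endothelium (r = 0.61, rho = 0.33) and oligodendrocytes (r = 0.55, rho = 0.53), Havcr2 with endothelium (r = 0.54, rho = 0.27), and Cd86 with neurons (r = 0.52, rho = 0.65). Cd276 (r = -0.59, rho = -0.60) and Cd274 (r = -0.50, rho = -0.55) had negative correlations with the neuron score. Without the 2 libraries farthest from the median score, r with endothelium was 0.31 for Vsir and 0.33 for Havcr2, and the other 4 relations named here lay at 0.62 for Vsir, 0.52 for Cd86, -0.56 for Cd276 and -0.53 for Cd274.

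Between members of the list, 2 of 28 pairs passed an adjusted p of 0.05 after removal of group means, a comparison that was added after the data had been seen. The permutations exchanged values between groups, which takes the spread of the groups to be alike. The SD of Cd274, Cd86, Vsir and Havcr2 was largest in melanoma plus ICI mice, so these p-values may be too small. Cd274 and Cd86, ligands of the 2 receptors that the antibodies block, varied in opposite directions (r = -0.75, permutation p = 0.00043, adjusted p = 0.0120; rho = -0.69, adjusted p = 0.0252), with r = -0.55 without the 2 libraries farthest out. Melanoma plus ICI replicate 1 had the lowest Cd274 and the highest Cd86 of all libraries, and replicate 4 of that group had the lowest Cd86 beside a high Cd274. Cd86 varied little in control and ICI mice, with a coefficient of variation of 5.64% and 3.82%. It reached 19.9% in melanoma and 38.5% in melanoma plus ICI mice. The relation thus rests mostly on tumour-bearing mice, and it was not tested within each group. Without the 2 libraries that lay apart r was -0.65 (permutation p = 0.00241, adjusted p = 0.0225), and it stayed past the threshold with each library left out in turn. With group means kept in, r was -0.63 and the call was lost (permutation p = 0.00769, adjusted p = 0.108). Their correlations with the leading component had opposite signs and neither passed, with r = -0.52 for Cd274 (adjusted permutation p = 0.0884; -0.24 without the 2 libraries farthest out) and r = 0.43 for Cd86 (adjusted permutation p = 0.126; 0.29 without them), and the part of that component in their relation was not tested. Genes most like Cd274 were Irak3 (r = 0.86), Erbb2 (0.84) and Wdr27 (0.78), and those most like Cd86 were Ubqln4 (0.84), Cx3cl1 (0.83) and Akt1 (0.82).

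Vsir and Havcr2 varied together (r = 0.73, permutation p = 0.001, adjusted p = 0.0140; rho = 0.51, adjusted p = 0.312), with r = 0.45 without the 2 libraries farthest out. This relation rests on 1 library: melanoma plus ICI replicate 3 had the highest Vsir, 32.9 CPM, and the highest Havcr2, and without it r was 0.41 (permutation p = 0.0802, adjusted p = 0.47). The same library had the highest endothelium score of all 20, 5.14 against 4.39 to 4.94 in the others. It also had the lowest scores for the dentate gyrus (2.33) and the CA fields (3.96) and the highest for neocortex (6.28) of all 20 libraries. Endothelial markers summed to 326 to 398 CPM for control, 267 to 328 for ICI, 355 to 420 for melanoma and 314 to 531 for melanoma plus ICI mice, with all 10 measured, and their part in the relation was not tested. Genes most like Vsir were Pnpla2 (r = 0.85), Arhgef10l (0.83) and Nfic (0.82). Those most like Havcr2 were Dlgap3 (0.82), Prkcz (0.82) and Srrm3 (0.81), those most like Lgals9 were Hdhd3 (0.77), Syap1 (0.76) and 5430403G16Rik (0.76), and those most like Cd276 were 1700001K19Rik (0.79), Ewsr1 (0.77) and Gcfc2 (0.75).

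**Figure D5:**
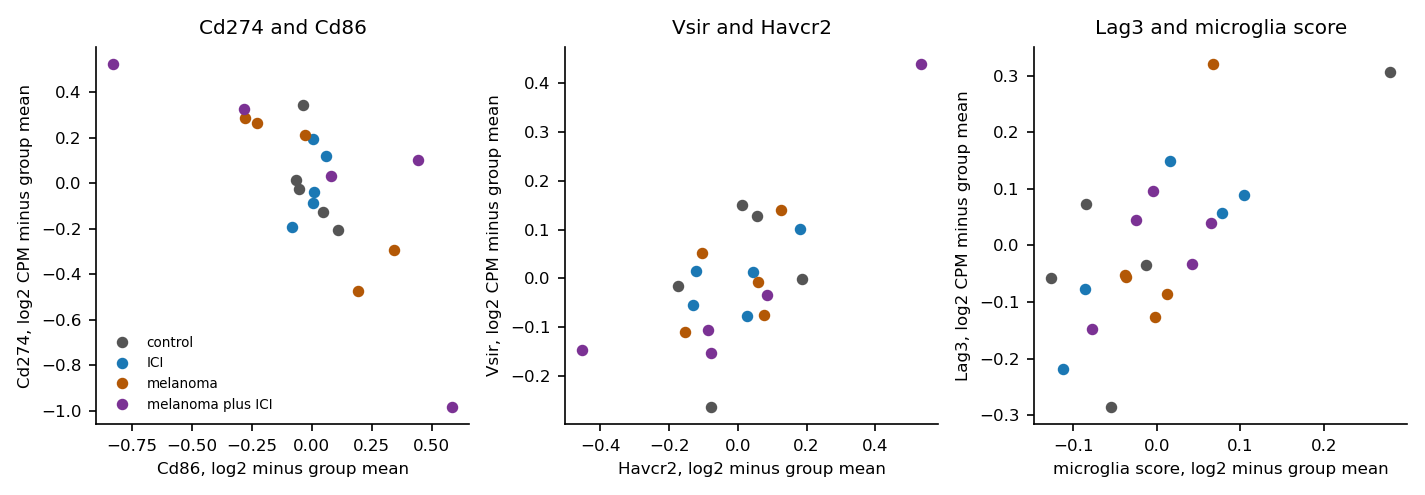
Values per library after removal of group means (log2 scale), coloured by group, for Cd274 against Cd86, Vsir against Havcr2 and Lag3 against the microglia score. Cd274 falls as Cd86 is higher (r = -0.75), mostly among tumour-bearing mice. The single point at the upper right of the middle panel is melanoma plus ICI replicate 3, and Lag3 is higher where the microglia score is higher (r = 0.70).

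The partners of these genes were also measured. Of 44 further genes of the checkpoint pathways in 8 groups, 29 passed the count filter: 3 of 4 partners of the PD-1 axis, 1 of 4 of the CD28 and CTLA-4 axis, 4 of 4 partners of TIM-3 and LAG-3, 2 of 2 of VISTA, 0 of 3 CD200 receptors, 8 of 13 other inhibitory pairs, 5 of 7 TNF family co-stimulators and 6 of 7 genes of the interferon gamma route. In all 9 tests 0 of the 29 passed the adjusted threshold. At an unadjusted p under 0.05 of the 29 genes there were 4 in the test for any difference, 3 in ICI against control (2 higher, 1 lower), 6 in melanoma against control (4 higher, 2 lower), 4 in melanoma plus ICI against control (1 higher, 3 lower), 2 in melanoma plus ICI against melanoma, 4 in melanoma plus ICI against ICI (3 higher, 1 lower), 0 in the averaged effect of ICI, 5 in the averaged effect of melanoma and 2 in the interaction. The shares of all tested genes at that threshold, in the same order, were 4.78%, 5.23%, 5.11%, 2.38%, 5.5%, 8.63%, 2.19%, 4.34% and 10.3%.

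The genes named next were picked for a small unadjusted p, which tends to make estimates look large, and none passed the adjusted threshold in any test. Cmtm6, which protects PD-L1 from degradation, had a log2 fold change of -0.22 in ICI against control (adjusted p = 0.766 in edgeR), 0.18 in melanoma plus ICI against ICI and an interaction of 0.33 (adjusted p = 0.476 in edgeR). Ifngr1, a chain of the interferon gamma receptor, stood at 0.31 in melanoma plus ICI against ICI (adjusted p = 0.563 in edgeR) and 0.18 in the averaged effect of melanoma. Igsf11, a ligand of VISTA, stood at -0.27, -0.26 and -0.26 in melanoma plus ICI against control, melanoma and ICI, comparisons that share the same 5 mice. Btla, an inhibitory receptor of lymphocytes, stood at 0.62, 0.58 and 0.63 (SE 0.24 each) in ICI, melanoma and melanoma plus ICI against control, which share the control mice. Jak2, a kinase of the interferon receptor, stood at 0.32 in melanoma against control and 0.23 in the averaged effect of melanoma. Jak1, its partner kinase, stood at 0.17 in ICI against control. Tnfsf9, the ligand of 4-1BB, stood at 0.63 in melanoma against control, and Tnfrsf4, which encodes OX40, at -0.65 in melanoma plus ICI against control and -0.38 in the averaged effect of melanoma. Nectin2, a ligand of TIGIT, stood at 0.38 in melanoma plus ICI against melanoma, with an interaction of 0.50.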

How the data were processed

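Per the labels, total RNA was purified from frozen hippocampi (RNeasy Plus Universal Mini kit, Qiagen). Each of the 20 deposited tables holds raw read counts for 49671 genes with coordinates, strand and length, per the file headers. The submitters' processing notes name STAR 2.5.2b and DESeq2 1.16.1 without giving their roles; the build and strand setting are not given in the sources used here. Of the identifiers, 49412 occur in GENCODE M21 (GRCm38), and 45214 have the same start and end there; symbols come from it. Within groups, the 40 pairs of libraries differed by a chi-square of at least 10.5 per gene, so none was a repeat. Groups and replicate numbers come from the sample titles.

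Counts were fitted with edgeR 4.0.16 in R 4.3.3 (TMM, factors 0.9555 to 1.0432; filterByExpr, minimum count 10; robust quasi-likelihood) on all 20 libraries with 1 mean per group. There were 8 contrasts and 1 test over all groups, adjusted by Benjamini-Hochberg over 18427 genes at 0.05. The script was tested on simulated data. Pdcd1lg2 and Cd80 did not pass the filter and got exact permutation tests of CPM. Correlations used log2 CPM (prior count 2) with group means removed and 100000 permutations, Python 3.11.15 and scipy 1.17.1. Values were permuted over all 20 libraries and not within groups, which takes the spread to be alike in each group. In each correlation the libraries left out as farthest were taken by the second measure named. Alternatives were DESeq2 1.42.0, limma 3.58.1 (voom with quality weights), RLE scaling, no filter, a replicate block, score covariates and libraries left out.

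The members, gene lists and markers were chosen with earlier results of these data known. All 10 genes are named. For each contrast the gene of the list with the smallest p is given. For each tested gene the 3 genes most like it, of at least 1 CPM on average, are named. Of the pathway genes, at most 3 per contrast are named, those with the smallest unadjusted p under 0.05, and Pdcd1, Ctla4 and Cd200r1 always.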

Additional observations from a re-analysis of the deposited data

Results flagged for a closer look

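Among 40 sets of 5 libraries, 1 for each gene and group, 2 held a library that stood far from the other 4 by Dixon's criterion, where chance gives about 1 in 20. Vsir was at 32.9 CPM in melanoma plus ICI replicate 3, with the other 4 mice of that group between 21.8 and 23.7. Lag3 was at 5.76 CPM in melanoma replicate 2, with the other 4 between 4.20 and 4.43.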

How the results depend on the processing

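The count of checkpoint genes past the adjusted threshold was 0 in all 9 tests with RLE scaling, DESeq2, voom, no filter, a replicate block, covariates and each library left out, and in the 5 comparisons of a pair of groups fitted on those groups alone. At an unadjusted p under 0.05 it ranged from 0 to 2 in each test over these alternatives, except for 4 in melanoma plus ICI against melanoma without melanoma plus ICI replicate 3. Over all 18427 genes, against 0 in edgeR, DESeq2 called 23 for any difference, 1 for ICI and 8 for melanoma against control, 47 for the interaction, 9 comparing melanoma plus ICI with ICI, and 4 for melanoma averaged over treatment. Voom called 6 for any difference, 1 for melanoma against control, 25 comparing melanoma plus ICI with melanoma, 19 for the interaction and 1 for ICI averaged over tumour status. Without melanoma plus ICI replicate 3, edgeR called 8 for any difference, 3 for melanoma against control, 11 comparing melanoma plus ICI with melanoma and 11 for the interaction. The number of relations with the microglia score past the threshold was 0 without both libraries that lay apart, and 0 to 1 with 1 library left out. Correlations with that score changed sign with no group means removed for Cd276 (0.0132) and Havcr2 (-0.0210), and without both libraries that lay apart for Cd274 (0.0837), Cd276 (0.116), Lgals9 (-0.0271) and Cd200 (-0.369). With 1 library left out r ran from -0.368 to 0.0636 for Cd276 and from -0.340 to 0.169 for Cd200, and control replicate 4 alone turned the sign, to 0.0636 and -0.340. The cause was not tested. Alternatives added after the data had been seen gave, with no group means removed, r = -0.63 for Cd274 with Cd86 and 0.63 for Vsir with Havcr2, neither past the threshold, and with 1 library left out -0.85 to -0.65 and 0.41 to 0.77.

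Replicate numbers showed no clear pairing of the samples, though this check cannot exclude one. Same-numbered libraries correlated at -0.35 to 0.53 over 30 pairs, 10 of them over 0.1, with the highest value between libraries numbered 1. Of 20 libraries, 6 correlated best with their own number, and the level that chance gives was not computed. With a replicate block, 0 checkpoint genes were called, Havcr2 stood at -0.40 in melanoma plus ICI against melanoma and Lgals9 at 0.38 in the interaction. Depth limits Pdcd1lg2, Cd80, Pdcd1, Ctla4 and Cd200r1, which had too few reads for the model.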
